A study of Mus musculus with 12 samples.

Results

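The genes described here are the ISG15 conjugation machinery and the interferon-inducible poly(ADP-ribose) polymerase (PARP) genes, read in preosteoclasts of LSD1WT and LSD1cKO mice. They are the rows of the count table whose gene symbol is Isg15, Uba7, Ube2l6, Herc6, Usp18, Parp9, Dtx3l, Parp10, Parp12 or Parp14. These are 10 of 57010 genes listed, and 10 of 10 passed the filter on low counts, as did 15425 genes in all. Bone marrow of female mice, 2 months of age by the series description and older by the study's methods, was flushed from mandible or femur and cultured for 2 days with M-CSF and RANKL, the cytokines that drive osteoclast formation. LSD1cKO mice lack the histone demethylase LSD1 (gene Kdm1a) in myeloid cells, because floxed alleles are cut by LysM-Cre, a recombinase under the Lyz2 promoter, which acts in monocytes, macrophages and neutrophils. LSD1WT mice are the controls. Each genotype had 2 mandible libraries and 2 femur libraries of ligated mice, and 2 femur libraries of mice without a ligature. By the study's methods, ligated mice carried silk ligatures on maxillary molars of both sides for 7 days (ligature-induced periodontitis). The ligated jaw was thus the maxilla, not the mandible. The 12 libraries came from 9 mice by their labels, and 3 mice (1 LSD1WT, 2 LSD1cKO) contributed a library of each site.

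ISG15 is a ubiquitin-like protein that interferon induces and that is joined to other proteins by an enzyme cascade: UBA7 activates it, UBE2L6 carries it, and a HERC-type ligase (HERC6 in the mouse) attaches it, while USP18 removes it and also restrains the type I interferon receptor. PARP9, PARP10, PARP12 and PARP14 belong to the family of ADP-ribosyltransferases, most of whose interferon-inducible members attach single ADP-ribose units. PARP9 works together with DTX3L, a ubiquitin ligase of the Deltex family. Both sets are classical interferon-stimulated genes of macrophages, and osteoclasts arise from the same myeloid precursors.

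Total counts per library ran from 21375805 to 32526751, at which 3 counts correspond to 0.0927 to 0.154 CPM, the count divided by the TMM-scaled library size, times 1e+06. Kdm1a stood at 61.2 to 71.3 CPM in the 6 LSD1WT libraries and at 15.6 to 24.3 CPM in the 6 LSD1cKO libraries. Both femur LSD1WT replicate 2 libraries stood apart before any result is given: the summed level of 10 osteoclast markers was 168 and 238 CPM in them against 11545 to 40907 CPM in the other 10 libraries, and the sum of 8 macrophage or monocyte markers was 8297 and 6784 CPM against 1025 to 2945 CPM. No osteoclast marker and no macrophage marker was at 0 in any library. The cells of those 2 libraries therefore did not carry the osteoclast markers at the level of the others, and results that rest on them are given with and without them. The mandible LSD1WT replicate 3 library is placed by its title, while its library name and the name of its count column both say femur. It differed little from the other mandible LSD1WT library, with a median absolute log2 difference of 0.0817 over all genes tested against 0.148 to 0.732 within the other 5 groups. Their osteoclast marker sums were 26091 and 26214 CPM. Whether these 2 libraries stand for 2 mice, as labelled, was not tested. If they do not, non-overlap with mandible LSD1WT and fits of the mandible groups alone rest on a single LSD1WT mouse. P values below measure only the spread between libraries, and mice that gave 2 libraries count as separate samples unless stated.

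Isg15 itself, the modifier, was, with Usp18, one of the 2 genes of the set with the widest range relative to their lowest level. In the mandible cultures LSD1WT held 1.14 and 1.36 CPM, and LSD1cKO 2.20 and 6.71 CPM. In the femur of ligated mice the LSD1WT libraries gave 6.37 and 18.9 CPM and the LSD1cKO libraries 105 and 182 CPM. Unligated femur cultures held 12.9 and 10.2 CPM in LSD1WT and 55.4 and 76.3 CPM in LSD1cKO. Both LSD1cKO libraries lay above both LSD1WT libraries in each culture, while of the mandible LSD1cKO libraries replicate 1 lay below all 4 femur LSD1WT libraries and replicate 2, at 6.71 CPM, above the lowest of them only. Over the 3 cultures Isg15 rose by 2.65 ± 0.41 (log2 fold change ± SE, 6 libraries per genotype, edgeR adjusted p = 0.00646), which is 6.28-fold.

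The stretch before the Isg15 start site is shown because Isg15 is the modifier and because it was the single promoter of those matched that held the interferon-stimulated response element searched for. Promoters of 6 of the 10 genes were matched in RefSeq (Isg15, Uba7, Ube2l6, Herc6, Dtx3l and Parp12, build GRCm38.p6, whereas the counts rest on GRCm39), and those of Usp18, Parp9, Parp10 and Parp14 were not analysed here. The letters GAAANNGAAA were searched on both strands from 250 bases before to 50 bases after the start site, and were found in 1 of 6. By comparison, 3.44% of all 32851 RefSeq windows of that length held them. In Isg15 there were 3 matches in the direction of transcription that overlap each other, starting 78, 72 and 66 bases before the start site. The letters TTCNNNGAA, a gamma-activated site, were in 0 of 6 windows and in 8.3% of all windows, so no match of one pattern overlapped a match of the other in these windows. A match is a description of letters, not of binding. Windows without a match included those of Uba7, Herc6, Dtx3l and Parp12, whose log2 CPM had a Pearson's r of 0.940 to 0.991 with Isg15. That of Ube2l6, also without a match, had 0.755. The 250 bases before the start site of Isg15 (GRCm38.p6, chr4:156200819-156201068, minus strand) are printed 5′ to 3′ with the 3 joined matches in capitals, above those of Ube2l6 (chr2:84798578-84798827, plus strand), the conjugation gene whose levels followed the others least and whose window held no match.
Isg15: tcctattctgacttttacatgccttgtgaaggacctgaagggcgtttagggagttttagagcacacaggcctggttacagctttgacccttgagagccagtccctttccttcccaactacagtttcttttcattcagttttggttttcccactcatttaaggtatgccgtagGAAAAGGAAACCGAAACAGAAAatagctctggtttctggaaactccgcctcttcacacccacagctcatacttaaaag
Ube2l6: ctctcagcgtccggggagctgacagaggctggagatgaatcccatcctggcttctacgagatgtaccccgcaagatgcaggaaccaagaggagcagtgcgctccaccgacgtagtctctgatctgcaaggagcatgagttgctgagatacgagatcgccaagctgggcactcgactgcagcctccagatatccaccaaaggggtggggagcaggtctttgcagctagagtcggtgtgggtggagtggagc

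Usp18, which encodes the protease that takes ISG15 off its targets, moved over a wider range still. The mandible LSD1WT libraries held 8 and 14 counts (0.326 and 0.514 CPM), and the mandible LSD1cKO libraries 0.962 and 5.07 CPM. In ligated femur the levels were 4.53 and 16.5 CPM in LSD1WT and 66.3 and 90.3 CPM in LSD1cKO. Without a ligature, femur cultures gave 9.13 and 7.58 CPM in LSD1WT and 39.8 and 55.2 CPM in LSD1cKO. The genotypes did not overlap in any of the 3 cultures, and the LSD1cKO mandible pair differed more between its own replicates than the LSD1WT pair did. Usp18 rose by 2.74 ± 0.42 over the 3 cultures (edgeR adjusted p = 0.00646), a 6.66-fold difference, and with Isg15 it was ahead of the other 8 genes on that scale.

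The activating enzyme and the ligase moved less. Uba7, the E1 enzyme that opens the ISG15 cascade, gave 18.3 and 17.5 CPM in mandible LSD1WT, 30.4 and 37.4 CPM in mandible LSD1cKO, 32.5 and 95.4 CPM in ligated femur LSD1WT and 123 and 142 CPM in ligated femur LSD1cKO. Unligated femur cultures gave 43.6 and 58.9 CPM against 88.3 and 135 CPM. Its rise over the 3 cultures was 1.03 ± 0.23 (edgeR adjusted p = 0.0384). Herc6, the ligase that takes the place of human HERC5 in mice, gave 4.20 and 5.28 CPM against 6.94 and 9.33 CPM in the mandible. Ligated femur cultures gave 10.2 and 28.2 CPM in LSD1WT and 75.2 and 77.0 CPM in LSD1cKO, and unligated ones 14.5 and 18.4 CPM against 44.3 and 40.8 CPM. Herc6 rose by 1.39 ± 0.27 (edgeR adjusted p = 0.0199). For both genes LSD1cKO lay above LSD1WT in each culture with no overlap.

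Ube2l6, the E2 enzyme that passes ISG15 to the ligase, had a pattern of its own in LSD1WT. The mandible libraries were nearly level within LSD1WT, at 70.3 and 70.7 CPM, and reached 126 and 159 CPM in LSD1cKO. In ligated femur the LSD1WT libraries gave 132 and 60.1 CPM against 325 and 411 CPM in LSD1cKO, and in unligated femur 159.9 and 49.0 CPM against 262 and 269.6 CPM. Thus the lower LSD1WT library in each femur condition was replicate 2, the library with few osteoclast marker reads. Ube2l6 rose by 1.43 ± 0.30 over the 3 cultures (edgeR adjusted p = 0.0283). It was the only one of the 10 genes that was lower in replicate 2 than in replicate 1 of LSD1WT in both femur conditions.

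Of the PARP genes, the neighbours Parp9 and Dtx3l encode proteins that act as a complex. For Parp9 the mandible libraries gave 14.5 and 15.9 CPM in LSD1WT against 28.2 and 45.9 CPM in LSD1cKO. The ligated femur gave 41.6 and 113 CPM against 197 and 228 CPM, and the unligated femur 57.3 and 66.8 CPM against 134 and 125 CPM. Parp9 rose by 1.27 ± 0.22 over the 3 cultures (edgeR adjusted p = 0.0124). Dtx3l gave 15.7 and 17.9 CPM against 28.5 and 44.0 CPM in the mandible, 56.9 and 159.8 CPM against 217 and 219 CPM in ligated femur, and 66.9 and 95.6 CPM against 193 and 105 CPM in unligated femur. Its higher LSD1WT femur library came close to the lower LSD1cKO library in the unligated femur, at 95.6 and 105 CPM. The difference of 1.00 ± 0.25 did not pass the threshold (edgeR adjusted p = 0.0615). In the GENCODE vM21 annotation the exons of Parp9 and Dtx3l share 458 bases on opposite strands, which is 9.4% of the exon length of Parp9 and 8% of that of Dtx3l, and since the strand setting of the counting is not given in the sources used here, reads there cannot be assigned to either.

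Parp14, a large macrodomain PARP that lies beside Dtx3l on chromosome 16, reached the highest CPM of the set. Its mandible levels were 24.9 and 23.9 CPM in LSD1WT against 39.5 and 78.1 CPM in LSD1cKO. In ligated femur it gave 88.8 and 344 CPM in LSD1WT and 524 and 462 CPM in LSD1cKO, and in unligated femur 107 and 215 CPM against 378 and 258 CPM. The higher LSD1WT library was again replicate 2 in both femur conditions, and no LSD1cKO library fell below an LSD1WT library of the same culture. The difference of 1.15 ± 0.32 did not pass the threshold (edgeR adjusted p = 0.0896).

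Parp12 and Parp10, both mono-ADP-ribosyltransferases, changed by the smallest amounts of the 8 genes that passed. Parp12 stood at 41.1 and 40.0 CPM against 43.5 and 61.1 CPM in the mandible, where LSD1cKO replicate 1 was barely above LSD1WT. Femur cultures gave 63.6 and 87.4 CPM against 170.0 and 201 CPM with a ligature, and 70.9 and 81.9 CPM against 142 and 136 CPM without one. Parp10 was at 14.9 and 16.2 CPM against 18.9 and 21.9 CPM. Ligated femur libraries held 25.1 and 40.1 CPM against 58.8 and 65.4 CPM, and unligated ones 30.9 and 33.9 CPM against 50.6 and 50.5 CPM. Parp12 rose by 0.84 ± 0.17 (edgeR adjusted p = 0.0222) and Parp10 by 0.66 ± 0.14 (edgeR adjusted p = 0.0274) over the 3 cultures.

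**Figure D1:**
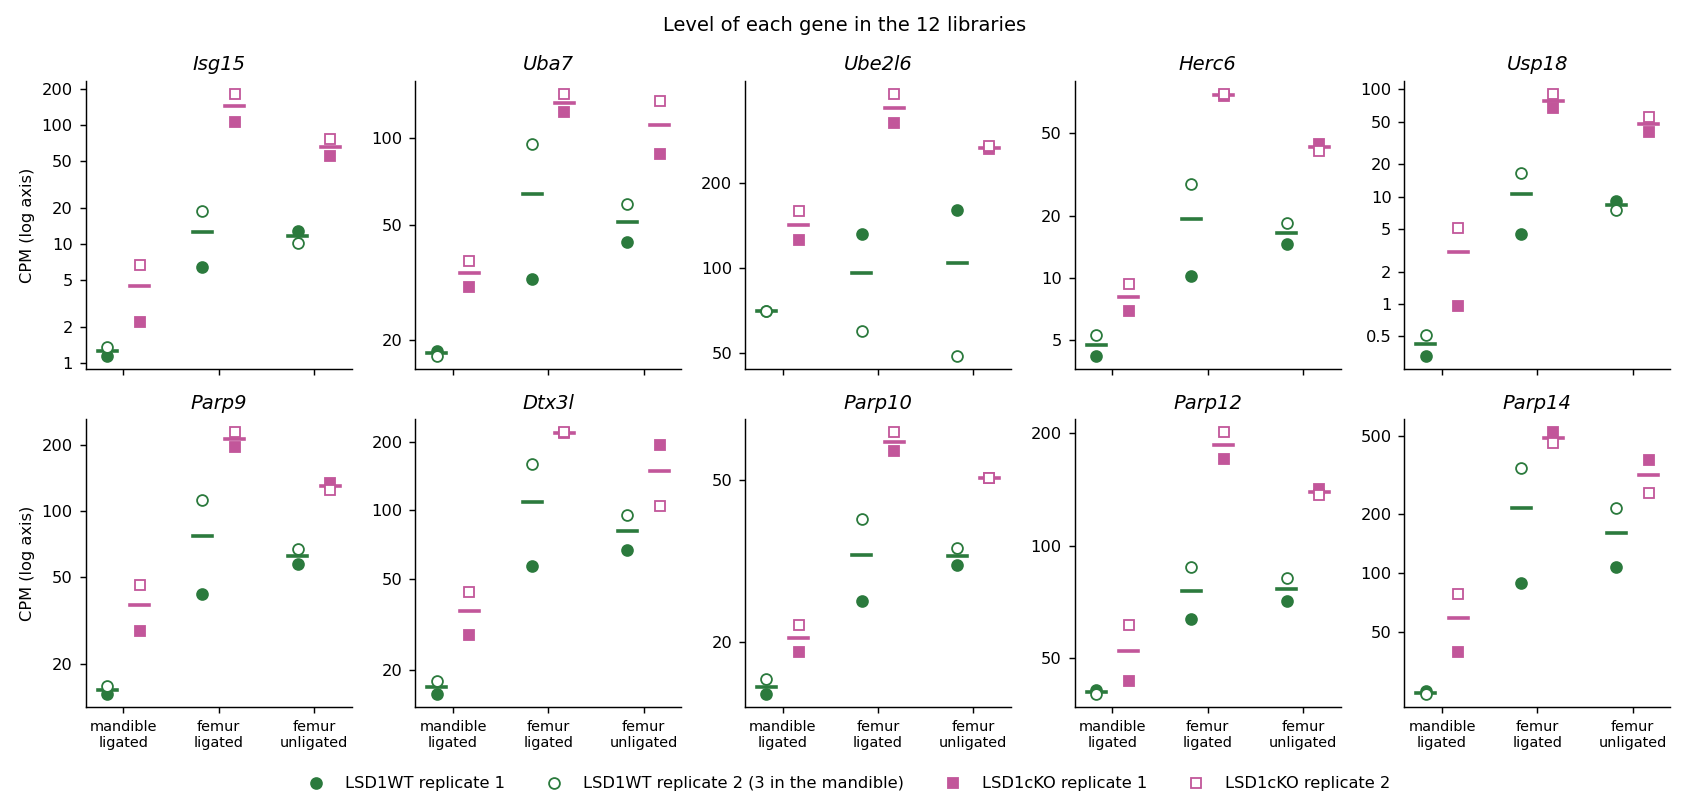
Level of each of the 10 genes (CPM, log axis) in the 12 libraries, by culture on the horizontal axis, with LSD1WT as circles, LSD1cKO as squares and the mean of 2 libraries as a bar. In each culture the squares lie above the circles for 10 of 10 genes, and the lowest levels are in the mandible cultures except for Ube2l6, whose lowest LSD1WT libraries are the femur replicate 2 libraries at 60.1 and 49.0 CPM.

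As a set, 10 of 10 genes were higher in LSD1cKO than in LSD1WT without overlap in the mandible, where 34.1% of all genes tested were, in the ligated femur (14.8% of all genes) and in the unligated femur (9.82% of all genes). This was so in each of the 3 cultures at once for 10 of 10 genes and for 5.17% of all genes. When the 6 LSD1cKO libraries were set against the 6 LSD1WT libraries over all cultures, 0 of 10 were separated (1.98% of all genes), since the mandible LSD1cKO libraries lay below the highest femur LSD1WT library for each gene. Over the 3 cultures 8 of 10 rose by the edgeR quasi-likelihood test with Benjamini-Hochberg adjustment over 15425 genes, and 3.00% of all genes did. With libraries of the same mouse allowed to correlate (limma voom, estimated correlation 0.519) 4 of 10 did (2.3% of all genes), the calls of Uba7, Herc6, Parp10 and Parp12 being lost (limma adjusted p = 0.106, 0.051, 0.0926 and 0.113). DESeq2 called 10 of 10 (5.34% of all genes upward). The median difference of the 10 genes was 1.21 on the log2 scale, and that of all genes was -0.06. In bulk cultures fewer cells of a type and less RNA per cell cannot be told apart. The osteoclast marker sum was also lower in mandible LSD1cKO (14650 and 14779 CPM) than in mandible LSD1WT (26214 and 26091 CPM), and in femur LSD1cKO (11545 to 29103 CPM) than in the femur LSD1WT replicate 1 libraries (40907 and 37456 CPM). In the mandible 10 of 10 osteoclast markers were lower in LSD1cKO without overlap, where 34.8% of all genes tested were. Of 8 macrophage or monocyte markers 5 were higher there without overlap, beside 34.1% of all genes. Among the 5 were Adgre1 (117 and 187 CPM against 47.6 and 49.8 CPM), Ccr2 (38.1 and 49.8 against 20.2 and 19.1 CPM) and Fcgr1 (3.06 and 5.35 against 0.898 and 1.39 CPM). Csf1r was lower and the sum overlapped, at 1025 and 1266 CPM in LSD1cKO against 1169 and 1172 CPM in LSD1WT. In ligated femur 2 of 8 were higher than both LSD1WT libraries and 7 of 8 were higher than replicate 1, with Ccr2 at 238 and 226 CPM in LSD1cKO against 38.6 and 249 CPM in LSD1WT. In unligated femur 1 of 8 was higher than both and 7 of 8 were higher than replicate 1. The sum of 5 stromal markers was lower in mandible LSD1cKO (8.11 and 3.03 CPM) than in mandible LSD1WT (39.5 and 40.1 CPM). The part of these markers in the result was not tested.

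Within single cultures the estimates were of similar size but the test made no call. In the mandible the median log2 fold change was 1.06, from 0.37 for Parp12 to 2.83 for Usp18. In ligated femur the median was 1.38, from 0.93 for Parp10 to 3.51 for Isg15, beside a median of -0.12 over all genes. In unligated femur the median was 1.09, from 0.64 for Parp10 to 2.51 for Isg15. By edgeR 0 of 10 passed in each of the 3 cultures, as did 0% of all genes in the upward direction in each. At an unadjusted p below 0.05 there were 3, 8 and 8 of the 10 genes, in that order, against 744, 1061 and 763 of all genes. DESeq2 called 0, 6 and 1 of the 10 genes upward, where it called 0.914%, 1.24% and 0.759% of all genes. In limma voom with a random mouse effect 0 passed in each (0%, 0.0713% and 0% of all genes). The estimated mouse correlation in that fit by group was -0.391, against 0.519 in the additive fit. Without both femur LSD1WT replicate 2 libraries edgeR called 4, 10 and 1 of the 10 genes upward, with 5.13%, 6.89% and 2.14% of all genes, and the median in ligated femur went from 1.38 to 2.28.

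**Figure D2:**
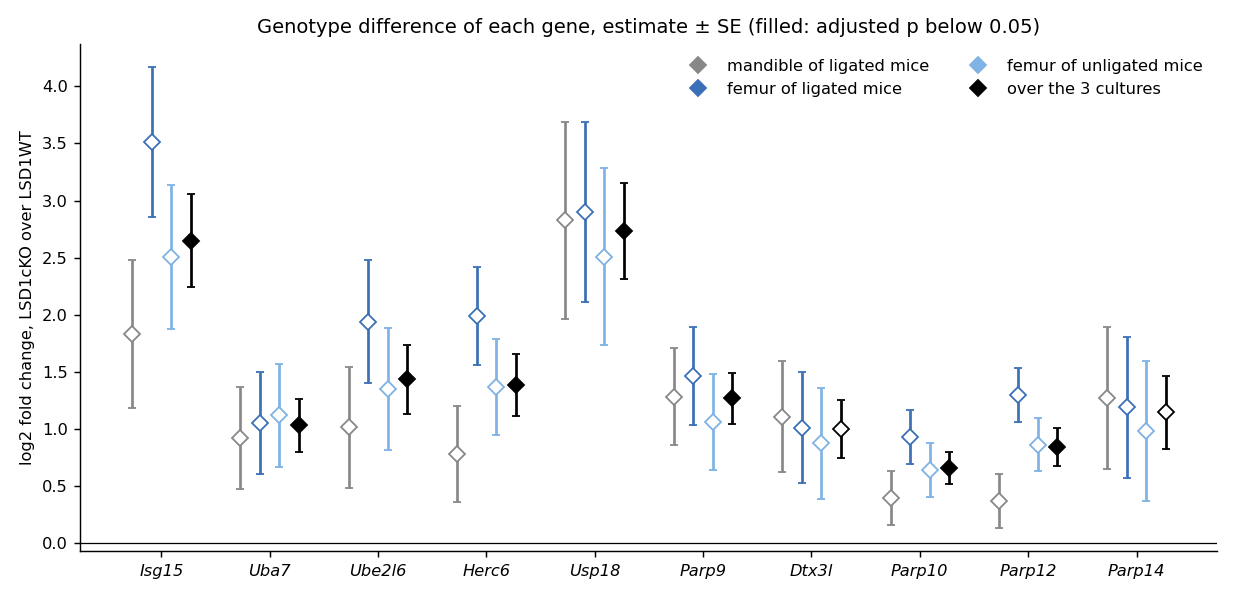
Log2 fold change of LSD1cKO over LSD1WT (vertical axis, edgeR estimate ± SE derived from its F statistic) for each gene, in each culture and over the 3 cultures, with filled symbols where the adjusted p was below 0.05. The 8 filled symbols are all estimates over the 3 cultures, and Isg15 and Usp18 reach 2.65 and 2.74 there.

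The share of all genes that rose over the 3 cultures was 3.00% with all libraries. It was 1.83% without mandible LSD1WT replicate 1 and 1.88% without mandible LSD1WT replicate 3. The count of the 10 genes called over the 3 cultures also depended on the libraries. It ran from 4 to 10 when each library was left out in turn: 4 without mandible LSD1cKO replicate 2, 5 without mandible LSD1WT replicate 1 or either ligated femur LSD1cKO library, and 10 without ligated femur LSD1WT replicate 2. Isg15, Usp18, Herc6 and Parp9 passed in 12 of 12 such fits, Parp12 in 11, Parp10 in 8, Ube2l6 in 6, Uba7 and Dtx3l in 4 and Parp14 in 1. Without both femur LSD1WT replicate 2 libraries 10 of 10 passed (14.4% of all genes upward), with Parp14 at 1.72 (edgeR adjusted p = 0.00106) and Dtx3l at 1.39 (edgeR adjusted p = 0.00151). The genes that also passed with the mouse as a random block in limma voom were Isg15, Usp18, Ube2l6 and Parp9.

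Whether the genotype difference varied with site or ligature was tested directly. Between mandible and ligated femur the difference was smaller in the mandible for 8 of 10 genes, with a median of -0.36, and 0 of 10 passed by edgeR (0% of all genes in either direction). That median rested on single libraries: it was 0.01 without ligated femur LSD1WT replicate 1, with 5 of 10 genes smaller in the mandible, -1.14 without ligated femur LSD1WT replicate 2, -0.93 without mandible LSD1cKO replicate 2 and -1.19 without both femur LSD1WT replicate 2 libraries. Isg15 had the largest estimate, -1.68 ± 0.88. Parp12, at -0.93 ± 0.33, was the 1 gene with an unadjusted p below 0.05. Between ligated and unligated femur the genotype difference was larger with the ligature for 9 of 10 genes, with a median of 0.40. It was -0.03 without ligated femur LSD1WT replicate 1, with 5 of 10 genes larger, 1.18 without ligated femur LSD1WT replicate 2 and 0.92 without both femur LSD1WT replicate 2 libraries. None passed (0 of 10, 0% of all genes in either direction, and 0 of 10 at an unadjusted p below 0.05). DESeq2 and limma voom also called 0 of 10 in both. A difference in response between sites or with the ligature was not detectable with 2 libraries per group.

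Levels in the mandible were lower than in the femur of ligated mice in both genotypes. In LSD1cKO 10 of 10 genes were lower without overlap (35.0% of all genes), with a median of -2.56, from -5.01 for Isg15 to -1.37 for Ube2l6. In LSD1WT 9 of 10 were (31.5% of all genes), with a median of -2.18, and Ube2l6 overlapped. With that many genes of the table separated, non-overlap says little here. By edgeR 0 of 10 passed in either genotype (0% of all genes downward in each), while 10 genes in LSD1cKO and 9 in LSD1WT had an unadjusted p below 0.05, against 2312 and 3051 of all genes. DESeq2 called 9 downward in each genotype, where it called 477 of all 15425 genes downward in LSD1cKO and 1058 in LSD1WT. In limma voom with a random mouse effect 0 passed. The estimated mouse correlation in that fit by group was -0.391, which gives no gain from pairing the sites within a mouse. Without both femur LSD1WT replicate 2 libraries, edgeR called 10 downward in LSD1cKO (1761 of 16008 genes) and 0 in LSD1WT (123 genes), and the LSD1WT median was -1.24. Without ligated femur LSD1WT replicate 2 alone that median was -1.28. Macrophage or monocyte markers were lower in the mandible as well. In LSD1cKO 7 of 8 were lower without overlap, with Mrc1 at 3.71 and 7.14 CPM against 172 and 95.4 CPM and Fcgr1 at 3.06 and 5.35 CPM against 71.2 and 78.9 CPM, while Cx3cr1 was higher, and their sum was 1025 and 1266 CPM against 2676 and 2100 CPM. In LSD1WT 6 of 8 were lower, with a sum of 1169 and 1172 CPM against 2018 and 8297 CPM. Of 10 osteoclast markers 4 were higher and 4 lower in mandible LSD1cKO without overlap, near the shares of all genes tested (35.3% higher and 35.0% lower). Their sum was 14650 and 14779 CPM there against 20275 and 17749 CPM in ligated femur LSD1cKO. In mandible LSD1WT the osteoclast sum was 26214 and 26091 CPM. In ligated femur LSD1WT it was 40907 CPM in replicate 1 and 168 CPM in replicate 2. The neutrophil marker sum was 136 and 163 CPM in mandible LSD1cKO against 301 and 275 CPM in ligated femur LSD1cKO. Of 8 neutrophil markers 6 were lower in the mandible in LSD1cKO without overlap. Elane and Mpo were higher, with Mpo at 17.2 and 18.4 CPM against 5.01 and 4.47 CPM. The stromal marker sum was 8.11 and 3.03 CPM in mandible LSD1cKO against 1.09 and 0.614 CPM in ligated femur LSD1cKO. In LSD1WT it was 39.5 and 40.1 CPM in the mandible against 0.388 and 24.2 CPM in ligated femur. The part of these markers in the site difference was not tested. These site comparisons share the ligated femur and mandible libraries with the genotype comparisons.

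The 3 mice that gave both cultures show the same contrast within the animal. In LSD1cKO mouse 1L the femur level of Usp18 was 68.9 times the mandible level, that of Isg15 47.9 times and that of Parp14 13.3 times. In LSD1cKO mouse 2L these ratios were 17.8, 27.2 and 5.91. In LSD1WT mouse 1L they were 13.9, 5.58 and 3.57. The smallest ratios were those of Ube2l6 in both LSD1cKO mice (2.59 in each) and of Parp12 in the LSD1WT mouse (1.55). All 30 ratios were above 1, and each gene had a lower ratio in the LSD1WT mouse than in both LSD1cKO mice, although 1 LSD1WT mouse gives no replicate of that. These libraries are also part of the site comparison above and the genes moved together, so the 30 ratios are not separate observations. The share of all genes with a ratio above 1 in the 3 mice was not computed.

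**Figure D3:**
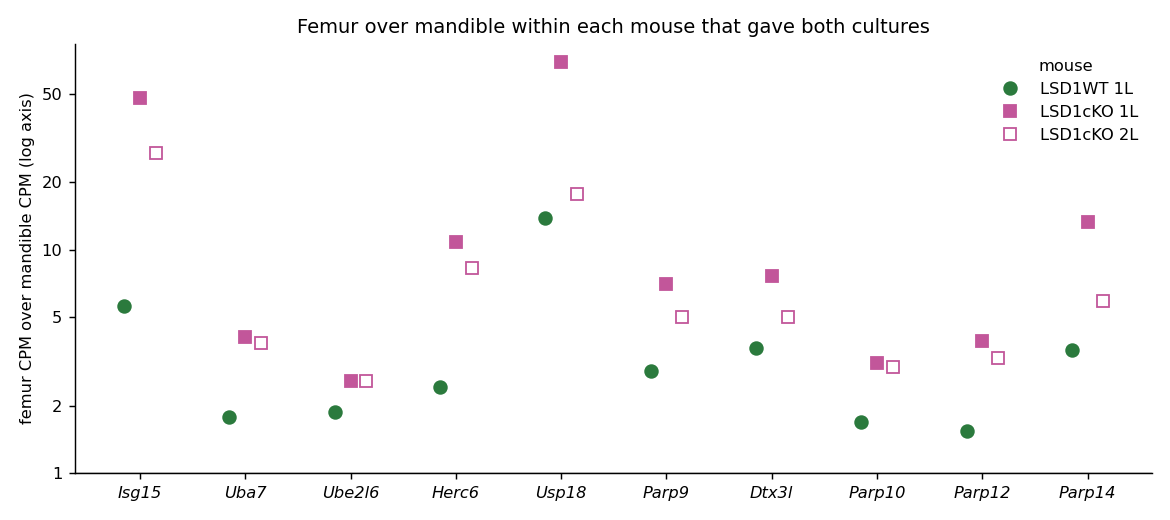
Femur CPM divided by mandible CPM (log axis) of each gene in the 3 mice whose marrow was cultured from both sites, with LSD1WT mouse 1L as circles and LSD1cKO mice 1L and 2L as filled and open squares. Every point lies above 1, and Isg15 and Usp18 reach 47.9 and 68.9 in LSD1cKO mouse 1L.

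The ligature made a smaller difference in the femur. In LSD1cKO 9 of 10 genes were higher with the ligature without overlap (14.0% of all genes), all but Uba7, with a median of 0.59, and Isg15 was at 1.13 ± 0.60. In LSD1WT 0 of 10 were (5.25% of all genes), with a median of 0.26 that was 0.80 without ligated femur LSD1WT replicate 1 and 0.16 without unligated femur LSD1WT replicate 1, and turned to -0.62 without ligated femur LSD1WT replicate 2 and to -0.41 without both femur LSD1WT replicate 2 libraries. By edgeR 0 of 10 passed in either genotype (0% of all genes upward in each), 0 of 10 had an unadjusted p below 0.05, and DESeq2 and limma voom called 0.

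Within LSD1WT the members of each femur pair differed, replicate 2 being the library with few osteoclast marker reads. In ligated femur 9 of 10 genes were higher in replicate 2 than in replicate 1, from 1.38 times for Parp12 to 3.87 times for Parp14, while Ube2l6 was at 0.456 of replicate 1. In unligated femur 7 were higher, led again by Parp14 at 2.01 times, while Ube2l6 (0.306), Isg15 (0.787) and Usp18 (0.830) were lower. Over the 12 libraries 8 neutrophil markers summed to 88.3 to 301 CPM. In ligated femur that sum was 114 and 274 CPM in LSD1WT and 301 and 275 CPM in LSD1cKO. The sums of 6 B cell markers (0.734 to 8.58 CPM), 5 plasmacytoid dendritic cell markers (1.82 to 7.50 CPM) and 5 stromal markers (0.373 to 40.1 CPM) were lower, and 6 T or NK cell and 5 erythroid markers summed to at most 0.403 and 0.447 CPM. The part of the cell makeup in these values was not tested.

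**Figure D4:**
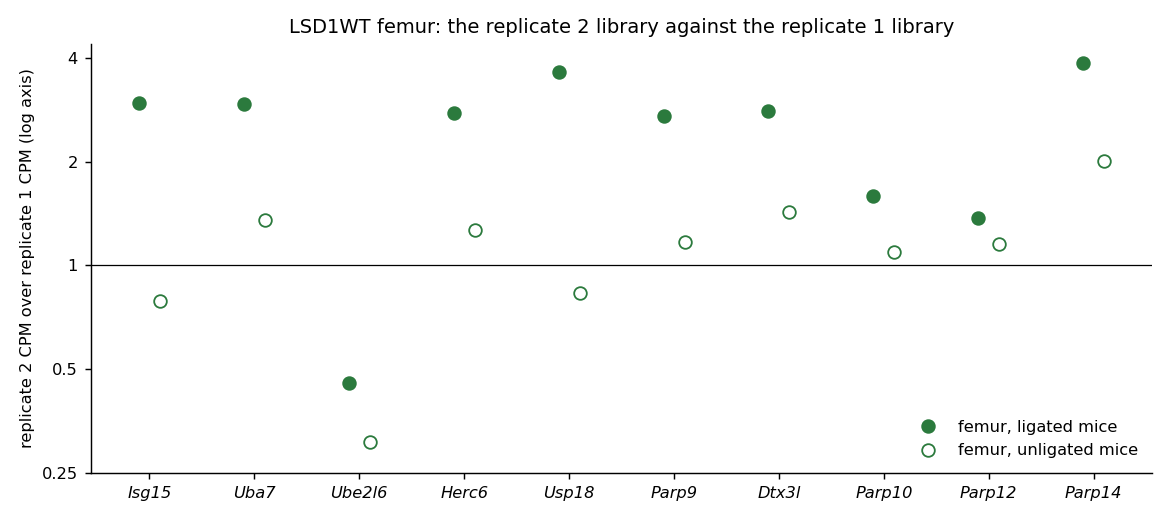
Level of each gene in the LSD1WT femur replicate 2 library divided by that in replicate 1 (log axis), for ligated mice (filled) and unligated mice (open). Ube2l6 lies below 1 in both, at 0.456 and 0.306, and Parp14 lies highest in both, at 3.87 and 2.01.

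Over the 12 libraries the genes moved closely together, which is given as a description, since the libraries share genotype, site and mice. Pearson's r of log2 CPM was at least 0.938 for each pair that did not include Ube2l6, and reached 0.994 for Herc6 with Parp10 and for Dtx3l with Parp14. Pairs with Ube2l6 ran from 0.535 with Parp14 to 0.755 with Isg15. Of 15424 other genes, those most like Isg15 were Samd9l (0.992), Phf11a (0.991), Parp12 (0.991), Usp18 (0.990) and Tgtp2 (0.990). Parp10 was at rank 8, Herc6 at 10, Parp9 at 21, Uba7 at 47, Parp14 at 106, Dtx3l at 117 and Ube2l6 at 822.

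Levels between genes are compared per kilobase of exon (mean CPM per kb, from GENCODE vM21 exon lengths). In that annotation Herc6 shares 1269 exon bases, 13.7% of its exon length, with Gm45193 on the same strand. Smaller same-strand shares are those of Parp10 (4.8%), Uba7 (3.48%) and Parp14 (1.18%). Reads in such stretches cannot be told apart by strand. In mandible LSD1WT Ube2l6 led at 35.3, ahead of Parp12 at 10.2, with Isg15 at 1.65 and Usp18 last at 0.151. In ligated femur LSD1cKO Isg15 (190.2) and Ube2l6 (184.5) were at similar levels, with means that differ less than their replicates do. They were followed by Parp14 at 53.0, Parp12 at 46.4 and Parp9 at 43.6, while Herc6 was last at 8.19. Of the conjugation cascade, the carrier Ube2l6 was thus the most abundant message in mandible LSD1WT and the modifier reached it in ligated femur LSD1cKO.

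Related genes were read from lists of the same pathways over the 3 cultures. Of 12 other PARP family genes 1 rose and 0 fell (3.00% of all genes rose and 0.532% fell), with a median of -0.07. The gene that rose was Parp8, by 0.76 ± 0.14 (edgeR adjusted p = 0.0131). Parp3 (0.42 ± 0.13, edgeR adjusted p = 0.117) and Parp11 (0.45 ± 0.15, edgeR adjusted p = 0.157) did not pass, and neither did Parp1, the main nuclear PARP, at -0.44 ± 0.22 (edgeR adjusted p = 0.367). Among 6 genes for removing ADP-ribose 0 passed, with Macrod1 at -0.73 ± 0.21 (edgeR adjusted p = 0.103) and a median of -0.16.

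The enzymes of other ubiquitin-like modifiers stayed near the median of all genes. Of 12 activating and conjugating enzymes for ubiquitin, SUMO, NEDD8 and UFM1, 0 passed, with a median of -0.06, and Ube2l3, the ubiquitin carrier most like Ube2l6, was at -0.01 ± 0.10. Of 8 other HERC and Deltex ligases 7 were tested and 0 passed, with Herc3 at 0.35 ± 0.13 (edgeR adjusted p = 0.206) and a median of 0.10. Of 6 further ligases and proteases linked to ISG15 5 were tested and 0 passed, with Trim25 at 0.24 ± 0.14 (called without both femur LSD1WT replicate 2 libraries, edgeR adjusted p = 0.0217) and a median of -0.11.

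Of 11 tested genes of the interferon signal 2 rose and 0 fell (3.00% and 0.532% of all genes). The median of the 11 was 0.40 beside -0.06 over all genes. Irf7, the transcription factor that amplifies the type I interferon response, rose by 2.71 ± 0.42 (edgeR adjusted p = 0.00662), from 1.80 and 1.91 CPM in mandible LSD1WT and 4.53 and 16.6 CPM in mandible LSD1cKO up to 254 and 390.4 CPM in ligated femur LSD1cKO. Socs1, a feedback inhibitor of JAK kinases, rose by 1.17 ± 0.23 (edgeR adjusted p = 0.0199). When each library was left out in turn, Irf7 and Parp8 passed in 12 of 12 fits and Socs1 in 11, its call being lost without ligated femur LSD1cKO replicate 2 (adjusted p = 0.0514). Irf1 was at 0.62 ± 0.19 (edgeR adjusted p = 0.11) and passed by DESeq2 (adjusted p = 0.0301) and without both femur LSD1WT replicate 2 libraries (edgeR adjusted p = 0.00387). Ifnb1, the gene for interferon beta, had from 0 to 6 counts in a library and was not tested. A level of Ifnb1 that differs between genotypes was not detectable at this depth.

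**Figure D5:**
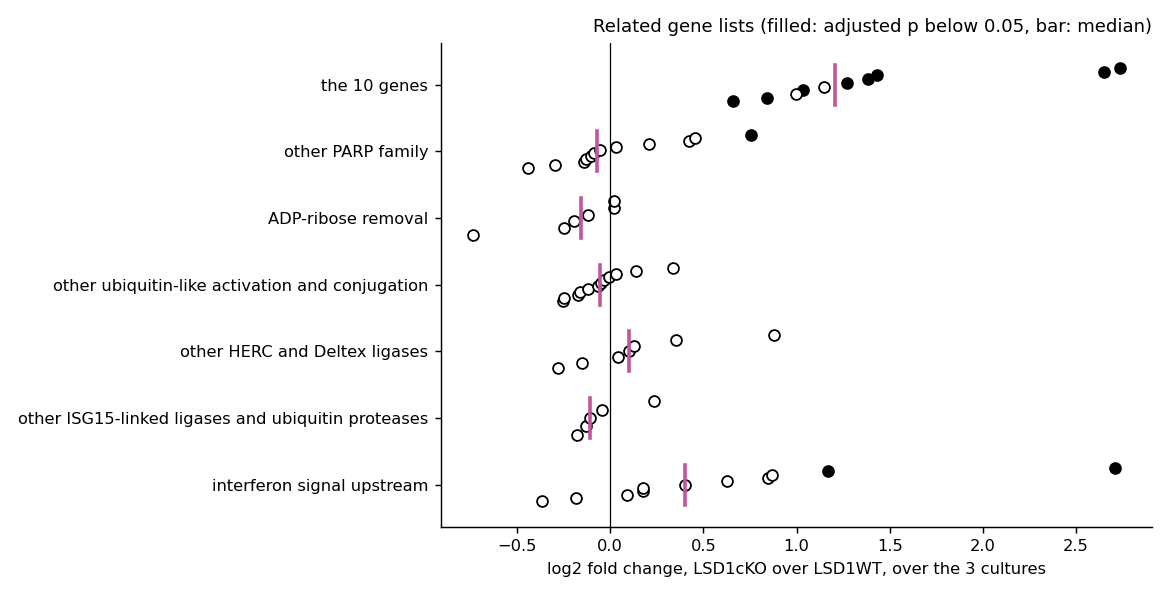
Log2 fold change of LSD1cKO over LSD1WT over the 3 cultures (horizontal axis) for the 10 genes and for each gene tested of 6 related lists (rows), with filled points where the edgeR adjusted p was below 0.05 and a bar at each median. The median is 1.21 for the 10 genes, 0.40 for the interferon signal and between -0.16 and 0.10 for the other 5 lists.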

How the data were processed

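RNA-seq counts of polyA RNA per gene in 12 libraries were analysed as the authors deposited them, with no scaling or filter. The submitters' processing notes name HISAT2 2.1.0, FastQC, featureCounts, edgeR and build GRCm39, while annotation and strand setting are not given in the sources used here. The 10 genes and the related lists were chosen with earlier results of these data known. In edgeR 4.0.16 (R 4.3.3) genes were kept with filterByExpr (15425), libraries scaled by TMM, and the quasi-likelihood test was run on a fit of all libraries by the 6 groups. An additive model of culture and genotype gave the difference over the 3 cultures. Adjusted p values are Benjamini-Hochberg over all genes tested, held to 0.05. The SE beside an edgeR estimate is the absolute log2 fold change divided by the square root of the F statistic of its test. Log2 CPM used a prior count of 2. The fits were also run on simulated data with independent libraries and no difference between cultures. That setting lacks shared mice and deviating libraries, so it checks the code and not the calls given here. DESeq2 1.42.0 and limma 3.58.1 (voom, mouse as a random block) were alternatives. All 10 genes are named, at most 4 genes of each related list by their p over the 3 cultures, the 5 genes most like Isg15, and Parp1, Ube2l3 and Ifnb1 by choice after their values were seen. By their labels, mandible and femur libraries of 3 mice pair as the same animals. Deviations of those pairs from their group means correlated at 0.026 in LSD1cKO and 0.030 in LSD1WT. Promoter windows are RefSeq, GRCm38.p6. 1 gene of the interferon signal list is not reported here, and the list was counted without it.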

Additional observations from a re-analysis of the deposited data

How the results depend on the processing

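Over the 3 cultures the count of the 10 genes called, 8, was 4 with limma voom and the mouse as a random block, 5 with LSD1WT replicate 3 taken as femur, 6 at a log2 fold change of at least 1, and 4 to 10 with 1 library left out, but 10 with DESeq2, 10 with no filter beyond 1 count and 9 with upper-quartile scaling. It was 6 with the nearly alike mandible LSD1WT pair summed into 1, an alternative chosen after seeing the data. In the mandible the count of 0 became 9 when the libraries of the compared groups were fitted alone, where 2761 of 14403 genes were called upward, and 4 without both femur LSD1WT replicate 2 libraries. In ligated femur it became 6 with DESeq2, 3 with no filter beyond 1 count, 10 without both femur LSD1WT replicate 2 libraries and 0 to 1 with 1 library left out. In unligated femur it became 1 with DESeq2 and 1 without those 2 libraries. For mandible against femur it became 9 with DESeq2, 7 with no filter and 0 to 9 with 1 library left out in LSD1WT, and 9 with DESeq2, 9 with no filter, 10 with the compared groups alone (3009 of 14475 genes downward), 10 without both femur LSD1WT replicate 2 libraries and 0 to 9 with 1 library left out in LSD1cKO. Ube2l6 in LSD1WT mandible against femur ranged from -0.91 to 0.27 with 1 library left out, turning above 0 without ligated femur LSD1WT replicate 1. Over the 3 cultures 3.00% of all genes rose in the main fit. The share was 5.34% with DESeq2, 2.17% with no filter and 3.24% with upper-quartile scaling. With no filter 0.335% of all genes were called upward in ligated femur. For mandible against femur that setting called 789 of 27149 genes downward in LSD1WT and 228 in LSD1cKO. Both interaction counts and both ligature counts were 0 under each alternative run. With LSD1WT replicate 3 taken as femur, Irf7 and Parp8 lost their calls over the 3 cultures (edgeR adjusted p = 0.0549 and 0.0525). DESeq2 called Irf1, Parp3 and Macrod1 over the 3 cultures (DESeq2 adjusted p = 0.0301, 0.0371 and 0.0233), as did edgeR without both femur LSD1WT replicate 2 libraries (adjusted p = 0.00387, 0.0492 and 0.0282). The estimates of the 10 genes in LSD1cKO against LSD1WT were above 0 under each. The cause of these changes was not tested.

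The replicate block, which treats equal replicate numbers as pairs, gave 8 of 10 over the 3 cultures and 0 in each other comparison. Outside the same-animal pairs the numbers are not stated to pair the mice, and deviations of same-numbered libraries correlated from -0.197 to 0.78. The highest was that of ligated with unligated femur in LSD1WT, where replicate 2 is in both the library with few osteoclast marker reads. Since some pairs were at or below 0.1, the numbers were not taken as pairs. Depth limits Usp18 and Isg15 most, which had 8 to 37 counts in mandible LSD1WT. Leaving out a library leaves a group with 1 library, whose spread is then assumed to equal that of the others.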
